A study of Mus musculus and Homo sapiens with 22 samples.

Results

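The genes described here encode voltage-gated sodium and calcium channels, potassium channels, hyperpolarization-activated channels and their auxiliary subunits, as expressed in N2A, a mouse neuroblastoma line with neuronal features. They were chosen by symbol (those starting with Scn, Cacna, Cacnb, Cacng, Kcn or Hcn) and by level, at least 1 RPKM (reads per 1000 bases of gene and 1000000 reads) in one of the 6 N2A files. The rule kept 52 of the 137 genes of these families in the files, out of 22667 mouse genes. Because the rule selected on RPKM, the levels below are a description, with no test.

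Pore-forming alpha subunits of sodium and calcium channels open when the membrane depolarizes. Sodium channels carry the upstroke of the action potential, and calcium channels couple it to secretion and gene expression. Beta, gamma and alpha-2-delta subunits adjust the surface level and gating of the pores. Potassium channels repolarize the membrane or set its resting potential, and hyperpolarization-activated (HCN) channels carry the pacemaker current of neurons and heart.

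The series used RNA-seq of N2A and 293T cells, with crosslinking libraries beside it, to ask how the splicing regulators nSR100 (gene Srrm4), Ptbp1 and U2af65 (gene U2af2) act. In the hairpin experiment, N2A cells were made stable by lentivirus and 2 ug/mL puromycin, with a hairpin aimed either at the 3′UTR of nSR100 (shnSR100) or at GFP as control (shGFP). Each of these groups is 1 file that combines 2 runs of different read length, so there is no replicate. In the siRNA experiment, N2A cells received an ON-TARGETplus pool with RNAiMax and were harvested 48 hours later: a non-targeting pool (2 control libraries, a and b), a pool against U2af65 (1 library, letter a) or a pool against Ptbp1 (1 library, letter b). All 6 files come from 1 cell line, and puromycin is described for the hairpin cells only.

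Each file held between 60220620 and 77138004 reads in genes. Ptbp1 stood at 8.53 RPKM in its knockdown against 158 and 139 RPKM in the controls, U2af2 at 18.4 against 113 and 105 RPKM, and Srrm4 at 2.50 RPKM in shnSR100 against 11.6 RPKM in shGFP. Of 10 general neuron markers 7 reached 1 RPKM, with Nefl, Nefm and Rbfox3 near 0, and of 10 sympathetic neuroblast markers 9 did. Markers of astrocytes summed to at most 0.48 RPKM and those of immune cells to at most 1.00 RPKM in any file. Fibroblast markers (4 genes) summed to between 0.40 and 0.82 RPKM in the siRNA files and to 7.27 and 12.1 RPKM in shGFP and shnSR100. The hairpin sums came mostly from Dcn (3.99 and 5.70 RPKM) and Pdgfra (2.74 and 5.82 RPKM). Col1a1 and Col1a2 stayed at or under 0.48 RPKM in every file. Muscle markers (7 genes) summed to between 4.96 and 9.26 RPKM over the files, with Actn2 the highest of them.

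The channel genes of N2A were led by a few calcium, potassium and HCN members. The highest means were those of Cacng7, Cacng3, Kcnh2, Cacnb3 and Hcn2, each of which exceeded 20 RPKM in most files. Among the other 85 family genes, 60 stayed under 0.1 RPKM in every file and 26 were listed at 0 in all 6. Just inside the 1 RPKM rule were Kcnk12 (highest value 1.02 RPKM) and Kcnj9 (1.11 RPKM), and just outside it Kcnj14 (0.95 RPKM), Kcnj13 (0.82 RPKM) and Kcna4 (0.68 RPKM). The sum over all 52 members was 365 and 413 RPKM in controls a and b, 338 after U2af65 knockdown, 364 after Ptbp1 knockdown, 476 in shGFP and 350 in shnSR100.

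**Figure D1:**
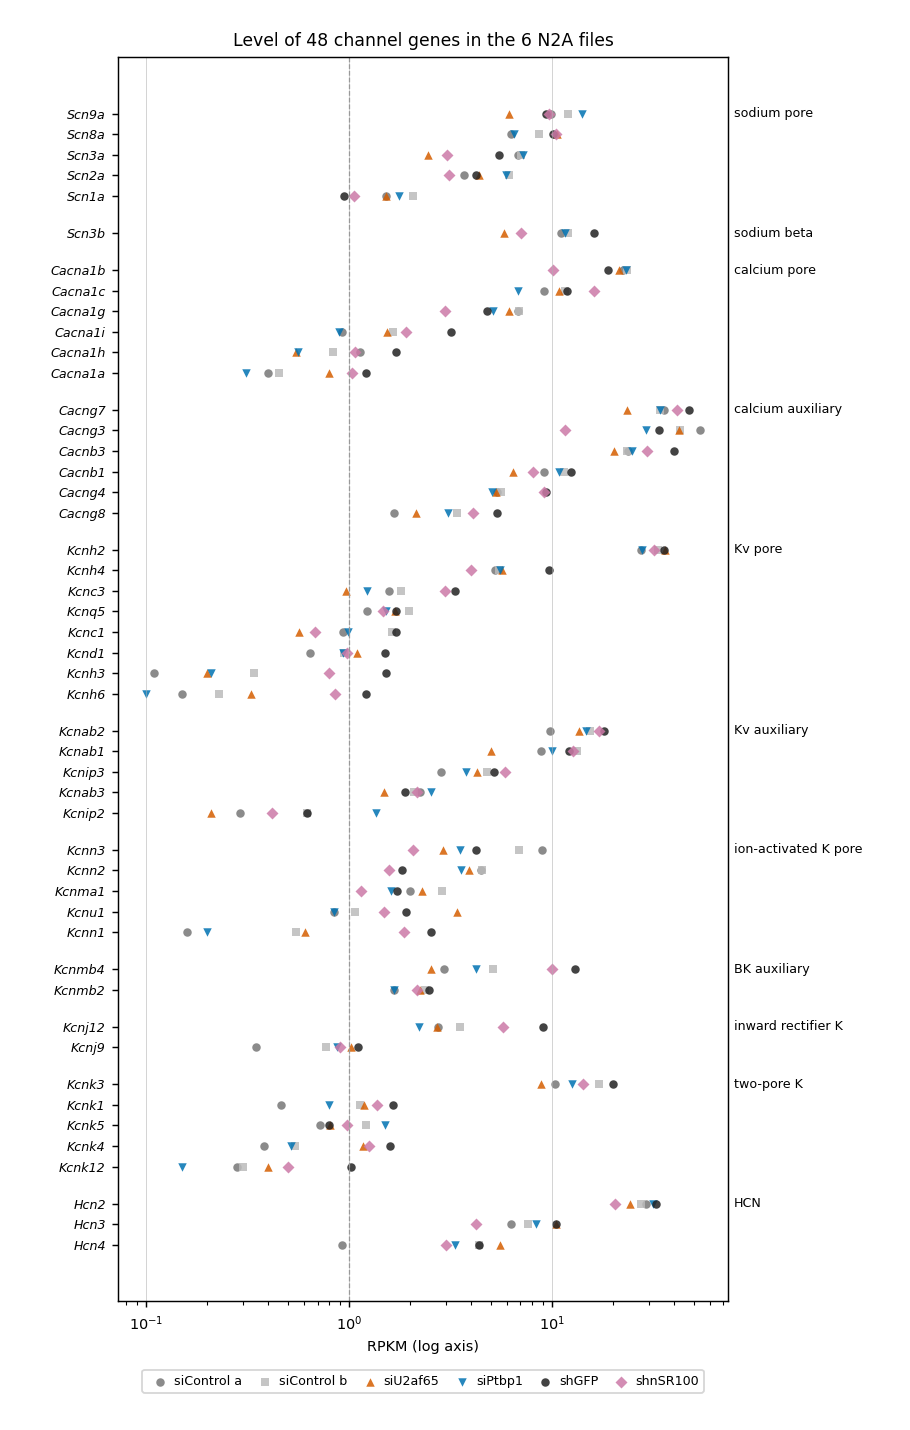
RPKM (log axis) of 48 channel genes in the 6 N2A files, 1 point per file, ordered within channel class by mean level; the dashed line is the 1 RPKM rule. The highest means are those of Cacng7, Cacng3 and Cacnb3, drawn in the calcium channel auxiliary class, the potassium channel gene Kcnh2 and Hcn2. Kcnn1 is at 0.16 to 0.61 RPKM in the siRNA files but at 2.54 and 1.87 RPKM in the hairpin files.

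Of the 10 sodium channel pore genes in the files 5 were members: Scn9a, Scn8a, Scn3a, Scn2a and Scn1a, which encode channels of sensory and sympathetic neurons (Scn9a) and of central neurons. The skeletal muscle gene Scn4a reached 0.31 RPKM at most. Scn9a stood at 9.93 and 11.99 RPKM in controls a and b, and made up 35.2% and 33.4% of the RPKM summed over the pore members. Scn8a followed at 6.29 and 8.60 RPKM and Scn3a, an isoform typical of immature neurons, at 6.78 and 7.06 RPKM. Of the beta genes, whose products are single-pass subunits beside the pore, Scn3b stood at 11.12 and 11.97 RPKM.

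Of the calcium channel pore genes Cacna1b, the N-type channel of nerve terminals, was highest, at 22.3 and 23.5 RPKM in controls a and b, followed by Cacna1c, the L-type channel that couples activity to transcription, at 9.12 and 11.6 RPKM. The T-type gene Cacna1g, a low-threshold channel, stood at 6.79 and 6.87 RPKM. Cacna1d and Cacna1e did not exceed 0.01 RPKM. Cacnb3 and Cacnb1, the cytoplasmic beta subunits that bring pores to the surface, stood at 23.7 and 23.5 RPKM and at 9.12 and 11.4 RPKM. All 4 alpha-2-delta genes (Cacna2d1 to Cacna2d4) stayed at or under 0.11 RPKM. Cacng3, Cacng4, Cacng7 and Cacng8 belong to the group of gamma genes known as AMPA receptor auxiliary subunits (TARPs), and Cacng2, the founding TARP, reached 0.03 RPKM at most.

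Kcnh2, the hERG-type channel of the delayed repolarizing current, led the voltage-gated potassium pores at 27.5 and 33.3 RPKM in controls a and b. Kcnab2 and Kcnab1, cytoplasmic beta subunits of Kv1 channels, stood at 9.74 and 15.4 RPKM and at 8.89 and 13.4 RPKM. The acid-sensitive leak channel Kcnk3 stood at 10.4 and 17.0 RPKM and Hcn2 at 29.3 and 27.4 RPKM. Control b lay above control a for 27 of the 40 members with enough reads for a test and below it for 13, with a median of 0.23 on the log2 scale against 0.04 over all genes tested. The pair was farthest apart for Hcn4, at 0.92 and 4.35 RPKM.

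After U2af65 knockdown, 6 channel genes changed: the sodium channel genes Scn3a, Scn3b and Scn9a, the Kv1 beta subunit gene Kcnab1 and the small-conductance calcium-activated channel gene Kcnn3 fell, and Kcnu1, a BK-type channel known from sperm, rose. In the fit over all siRNA libraries, 40 members averaged 1 RPKM or more and were tested, while the other 12 were not. By edgeR's quasi-likelihood test with Benjamini-Hochberg adjustment over all 11237 genes, 5 of the 40 were lower and 1 was higher, at an adjusted p under 0.05. Over all genes tested, 3.42% were lower and 1.82% higher. The counts over all genes were 384 lower and 205 higher, and with library totals in place of TMM scaling 578 lower and 580 higher, while the members' counts were 5 and 1 under both. These p-values reflect only the spread of the control pair, which may be technical since the labels do not describe separate cultures, and the knockdown is a single library. In a bulk sample, fewer cells of a type and less RNA per cell cannot be told apart.

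**Figure D2:**
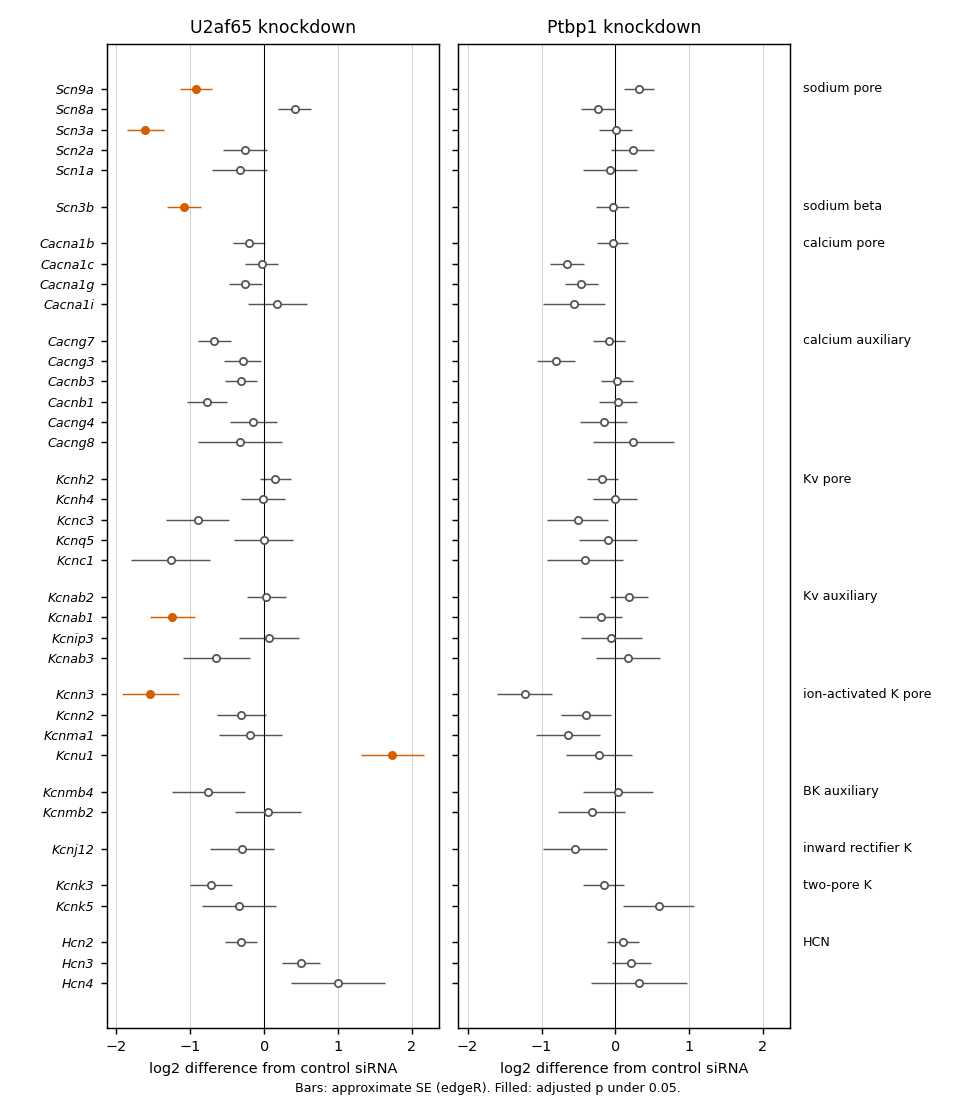
Log2 difference of 37 tested channel genes from the control siRNA libraries after U2af65 knockdown (left) and Ptbp1 knockdown (right), with approximate SE from edgeR; filled points have an adjusted p under 0.05. On the left Scn3a, Scn3b, Scn9a, Kcnab1 and Kcnn3 are filled below 0 and Kcnu1 above it, and on the right no point is filled.

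Among sodium channels, Scn3a (ENSMUSG00000057182) was at 51.5 and 49.3 CPM (counts per 1000000 of the TMM-scaled library size) in controls a and b and at 16.5 CPM in the U2af65 knockdown. Its log2 level fell by 1.61 (SE 0.25, adjusted p 0.0134 by edgeR). The knockdown lay far under both controls, which were close together. Scn3b (ENSMUSG00000049281), the beta subunit, was at 53.3 and 52.7 CPM in the controls and at 25.0 CPM in the knockdown. It fell by 1.08 (SE 0.23, adjusted p 0.0344 by edgeR), again with the knockdown below a tight control pair. Scn9a (ENSMUSG00000075316) was at 94.0 and 104 CPM in the controls and at 52.2 CPM in the knockdown. It fell by 0.93 (SE 0.22, adjusted p 0.0428 by edgeR).

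The other sodium channel genes did not pass the test. Scn8a, the main channel of adult axon initial segments, had 72.6 and 91.3 CPM in the controls and 109 CPM in the knockdown, which differs from them by 0.41 in log2 (SE 0.22, edgeR adjusted p 0.297). The knockdown value was above both controls. Scn2a lay between the controls in the knockdown, at 30.6 CPM against 28.9 and 44.4 CPM, and Scn1a was below both. As shares of the RPKM summed over the pore genes, Scn8a made up 22.3% and 24.0% in the controls and 42.2% after U2af65 knockdown, and Scn3a 24.0% and 19.7% against 9.74%. In RefSeq's gene order (GRCm38.p6, used for neighbours only), Scn9a lies next to Scn1a and Scn3a next to Scn2a. Whether the deposited counts separate reads of these similar genes is not given in the sources used here, so their split is uncertain.

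**Figure D3:**
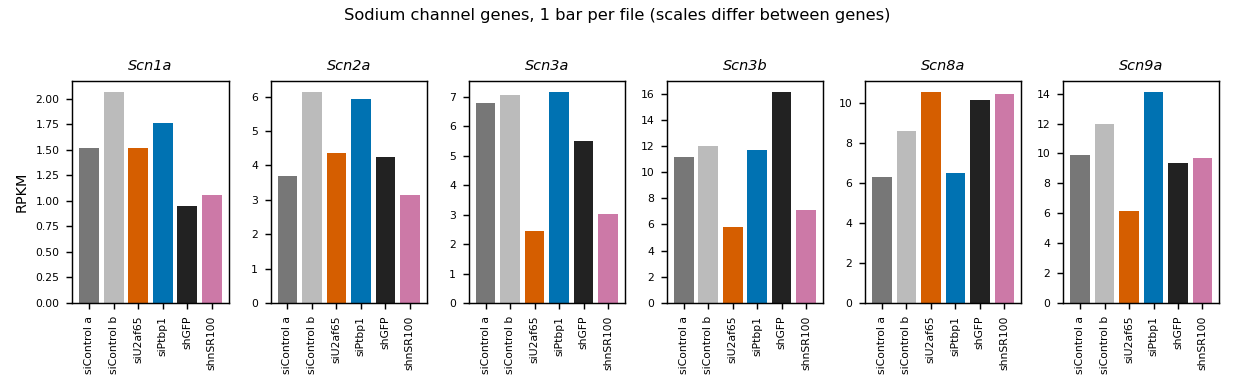
RPKM of 6 sodium channel genes above the rule, 1 bar per file, from 0 on an axis of its own for each gene. Scn3a and Scn3b are low in both the U2af65 knockdown and shnSR100 files, at 2.44 and 3.03 RPKM and at 5.84 and 7.08 RPKM, while Scn9a is low in the U2af65 knockdown alone, at 6.16 RPKM.

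Among potassium channels, Kcnab1 (ENSMUSG00000027827) was at 30.5 and 42.2 CPM in the controls and at 15.3 CPM in the U2af65 knockdown. Its log2 level fell by 1.24 (SE 0.31, adjusted p 0.0484 by edgeR). Its relative Kcnab2 did not pass the test, at 40.5 and 58.8 CPM in the controls and 50.6 CPM in the knockdown, which lay between them. Kcnn3 (ENSMUSG00000000794), whose channel gives the after-hyperpolarization of neurons, was at 27.1 and 19.2 CPM in the controls and at 7.95 CPM in the knockdown. It fell by 1.54 (SE 0.38, adjusted p 0.0485 by edgeR). Its RefSeq neighbour Pmvk, a gene of isoprenoid synthesis, also fell by 1.32 (adjusted p 0.0175 by edgeR), and its other neighbour Adar had a log2 difference of 0.75 without passing the test.

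Kcnu1 (ENSMUSG00000031576) was at 3.12 and 3.67 CPM in the controls and at 11.3 CPM in the U2af65 knockdown, from 186 and 287 reads against 808. Its log2 level rose by 1.74 (SE 0.42, adjusted p 0.0462 by edgeR). The knockdown was above both controls, which were close together, and the level was low in each file, at most 3.39 RPKM. Its RefSeq neighbours Ash2l and Hgsnat had log2 differences of 0.08 and 0.35 and did not pass the test.

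No calcium channel gene passed the main test after U2af65 knockdown, and Cacnb1 was called lower only in edgeR with no filter on low values (adjusted p 0.0418; range over the alternatives 0.0418 to 0.430). edgeR with the filter called 0 of the 10 tested, as did DESeq2 and limma on log2(RPKM + 1), and at an unadjusted p under 0.05 edgeR gave 2 lower (Cacng7 and Cacnb1) and 0 higher. Cacng7 had 82.6 and 72.7 CPM in the controls and 48.6 CPM in the knockdown (log2 difference -0.68, SE 0.22, edgeR adjusted p 0.110). Cacnb1 had 32.8 and 37.7 CPM against 20.6 CPM (log2 difference -0.77, SE 0.27, edgeR adjusted p 0.121). Both lay under the control pair. The pore genes Cacna1b and Cacna1c had log2 differences of -0.20 and -0.03. All 6 auxiliary members had negative values, with a median of -0.32.

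Hcn4, a pacemaker channel of the heart's sinus node, differed by 1.00 in log2 (SE 0.64, edgeR adjusted p 0.379), with the knockdown at 19.9 CPM and the controls at 3.69 and 16.1 CPM. The leak channel gene Kcnk3 had -0.72 (SE 0.29, edgeR adjusted p 0.167) and the fast Kv3 gene Kcnc1 -1.27 (SE 0.54, edgeR adjusted p 0.194). Over the 40 tested members the median log2 difference was -0.31, and 31 were negative (77.5%), against a median of -0.00 and 50.4% negative over all genes. The knockdown lay below both controls for 24 members, against 39.5% of all genes, and above both for 5, against 40.6%. At an unadjusted p under 0.05, edgeR gave 10 of the 40 members lower and 1 higher, against 1464 and 1181 of all 11237 genes. General neuron markers summed to 1573 RPKM in the U2af65 knockdown and to 1644 and 1563 RPKM in controls a and b. Within them Snap25 and Syt1, of synaptic vesicle release, had log2 differences of -0.88 (edgeR adjusted p 0.0521) and -0.90 (edgeR adjusted p 0.0650). Oligodendrocyte and Schwann markers summed to 5.17 RPKM against 2.62 and 2.68 RPKM, and endothelial markers to 9.21 against 4.56 and 5.14 RPKM. Sympathetic neuroblast markers summed to 301 RPKM against 378 and 326 RPKM, and 1 of the 9 tested was called lower by edgeR, Isl1 (log2 difference -1.70). Their part in the channel values was not tested.

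The 6 calls depended on the test and on the controls. With limma on log2(RPKM + 1) the calls of Kcnab1, Kcnn3 and Scn3a stood, while those of Scn3b, Scn9a and Kcnu1 were lost, with adjusted p of 0.0660, 0.135 and 0.0548. That setting called 5.61% of all genes lower and 5.83% higher, against 3 of 40 members lower and 0 higher. With the filter raised to an average of 5 RPKM, edgeR called Scn3a alone among the 24 members tested, and 2.05% of all genes lower. Kcnu1 was not tested there. With shGFP added as a further control, edgeR called 0 members and 0 of all genes (adjusted p of the 6 from 0.389 to 0.524). At an unadjusted p under 0.05 that fit gave 7 of 40 members lower and 1 higher, against 730 and 432 of all 11237 genes. Over the alternatives the adjusted p ranged from 7.8e-07 to 0.389 for Scn3a, from 0.00118 to 0.389 for Scn3b, from 0.00815 to 0.430 for Scn9a, from 0.000497 to 0.396 for Kcnab1, from 0.000196 to 0.524 for Kcnn3 and from 0.00138 to 0.446 for Kcnu1. DESeq2 on the same counts called the same 6 genes as edgeR, with 6.28% of all genes lower and 3.02% higher.

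After Ptbp1 knockdown, no channel gene passed the test. edgeR's quasi-likelihood test called 0 of 40 members in either direction, and DESeq2 and limma on log2(RPKM + 1) also called 0. Over all genes edgeR called 0.0267% lower and 0% higher. At an unadjusted p under 0.05 edgeR gave 3 of the 40 members lower and 0 higher, against 308 and 173 of all 11237 genes. The 3 were Cacng3, Cacna1c and Kcnn3. The median log2 difference of the members was -0.08, against 0.01 over all genes, but it depended on the control. From control b, which carries its letter, it was -0.26 with 31 of 40 negative, and from control a -0.03 with 22 negative. For the U2af65 knockdown it was -0.20 from control a, which carries its letter, with 25 of 40 negative, and -0.39 from control b with 34 negative. The medians over all genes tested were 0.001 from control b and 0.051 from control a for Ptbp1. For U2af65 they were 0.010 from control a and 0.003 from control b. The Ptbp1 comparison shares its controls with that for U2af65, so the values stand side by side and are not read against each other.

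Cacng3 (ENSMUSG00000066189), an auxiliary subunit of AMPA receptors, was at 85.3 and 62.3 CPM in the controls and at 42.4 CPM in the Ptbp1 knockdown (log2 difference -0.80, SE 0.26, edgeR adjusted p 0.911). The knockdown lay under both controls, which themselves differed by 0.45 on the log2 scale. The Ptbp1 knockdown differed by -0.55 from control b, its own letter. The U2af65 knockdown, at 60.2 CPM, differed by -0.50 from control a, its own letter, and by -0.05 from control b. Kcnn3 was at 9.89 CPM in the Ptbp1 knockdown (log2 difference -1.23, SE 0.37, edgeR adjusted p 0.829), also below both controls. Without the filter on low values, edgeR called Kcnn3 lower (adjusted p 0.0430; range over the alternatives 0.0430 to 0.999).

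Cacna1c had 62.9 and 73.4 CPM in the controls and 43.3 CPM in the Ptbp1 knockdown (log2 difference -0.65, SE 0.23, edgeR adjusted p 0.999), and 66.7 CPM in the U2af65 knockdown. The sodium channel genes that fell after U2af65 knockdown had log2 differences of 0.00 (Scn3a), -0.04 (Scn3b) and 0.32 (Scn9a) after Ptbp1 knockdown. Scn3a and Scn3b stood close to the control pair, and Scn9a stood above it, at 124 CPM. The Ptbp1 knockdown lay below both controls for 18 of the 40 members, against 28.9% of all genes, and above both for 5, against 34.8%. Below both were 4 of 4 tested calcium pores, 4 of 4 ion-activated potassium pores, 2 of 2 sodium beta genes and 1 of 1 inward rectifier. The counts were 0 of 4 for Kv auxiliary, 0 of 2 for two-pore and 0 of 3 for HCN members. They were 3 of 7 for Kv pores, 2 of 6 for calcium auxiliary, 1 of 5 for sodium pore and 1 of 2 for BK auxiliary genes. Some gaps were small, with Cacna1b at 159.6 CPM against 160.8 CPM in control b, and Kcnu1 at 2.91 CPM against 3.12 CPM in control a. Kcnk5, an alkaline-sensitive leak channel, had the highest difference, 0.59 (SE 0.48), at 4.92 CPM against 2.55 and 3.99 CPM.

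Between the hairpin files, 4 channel genes were lower in shnSR100 by 2-fold or more on log2(RPKM + 1), and none was higher. They were Cacng3, Hcn3, Kcnh4 and Scn3b. With 1 combined file per group no test was made, and the intervals below (exact binomial, 95%) cover counting error only. Of the 50 members with at least 1 RPKM in either file, 42 (84.0%) had a negative log2 difference, against 44.0% of all such genes, and the median was -0.33 against 0.04. This filter used the compared values, so the sign of a gene reaching 1 RPKM in only 1 of the files follows from the choice. Examples are Kcnc1 (1.71 and 0.68 RPKM in shGFP and shnSR100), Kcnj9 (1.11 and 0.90) and Kcnk12 (1.02 and 0.50). In the other direction an example is Scn1a (0.95 and 1.06 RPKM). Over all genes 0.615% were lower and 0.303% higher by 2-fold or more. The summed level of the 10 general neuron markers moved with this, from 1637 RPKM in shGFP to 1112 RPKM in shnSR100, with 1 of them (Snap25) lower by 2-fold or more. Its part in the channel values was not tested.

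**Figure D4:**
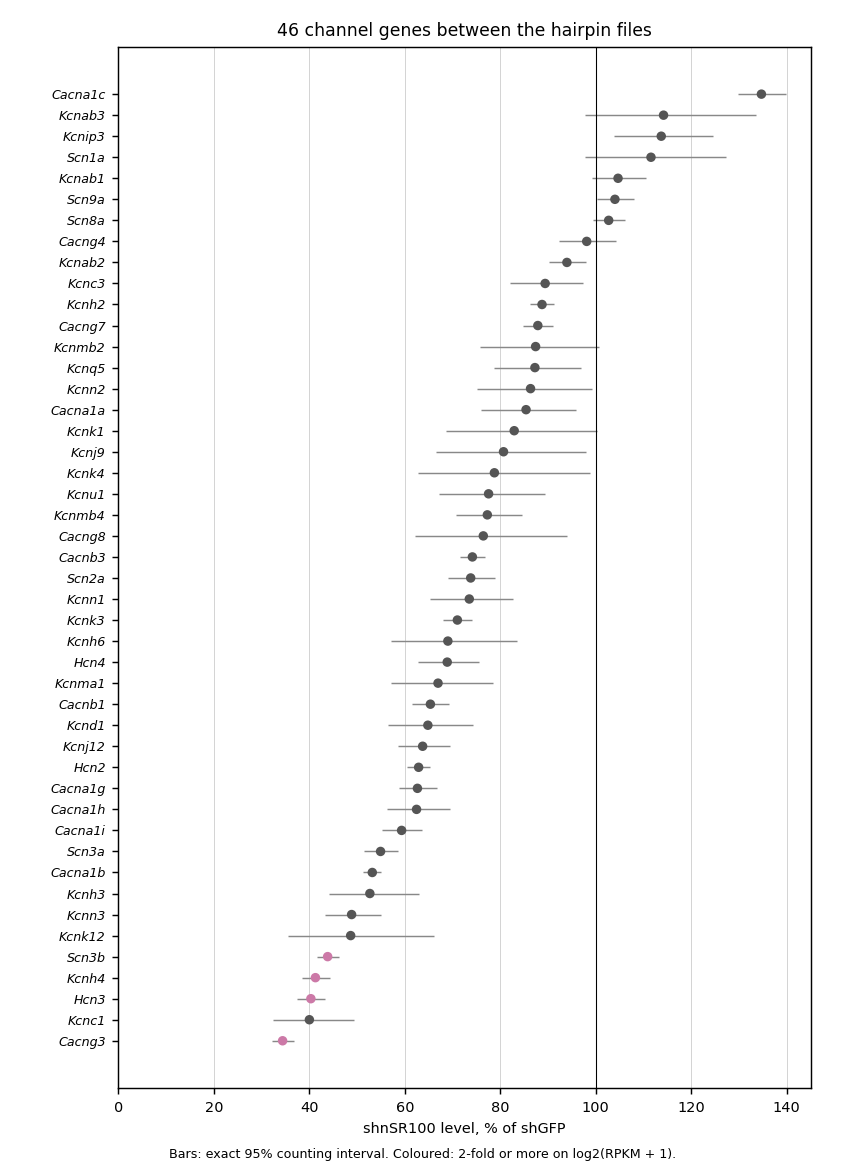
Level in shnSR100 as a percentage of shGFP for 46 channel genes with at least 1 RPKM in either hairpin file, with exact 95% counting intervals; coloured points differ by 2-fold or more on log2(RPKM + 1). Cacng3 is lowest at 34.4% and Cacna1c highest at 135%.

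Cacng3 stood at 33.6 RPKM in shGFP and at 11.6 RPKM in shnSR100, or 34.4% of the control (interval 32.2 to 36.8%). This was under its level in each of the siRNA libraries, which lay between 29.0 and 53.9 RPKM. Scn3b stood at 16.2 and 7.08 RPKM, or 43.9% (41.7 to 46.1%). The siRNA controls, at 11.12 and 11.97 RPKM, lay between both hairpin files. Hcn3, a pacemaker channel subunit, stood at 10.53 and 4.25 RPKM, or 40.3% (37.5 to 43.4%). Kcnh4, an ELK-type potassium channel gene, stood at 9.68 and 4.00 RPKM, or 41.3% (38.4 to 44.3%), while its siRNA values were all between 5.24 and 5.69 RPKM. For Hcn3 and Kcnh4 as for Scn3b, the siRNA controls lay between the hairpin values.

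The other members differed by less than 2-fold on log2(RPKM + 1), although Kcnc1, Kcnn3 and Kcnk12 were under 50% of shGFP on the RPKM scale. Cacna1b stood at 19.0 RPKM in shGFP and 10.1 RPKM in shnSR100, or 53.2% (51.4 to 55.1%). Scn3a stood at 5.51 and 3.03 RPKM, or 54.9% (51.5 to 58.6%). Kcnc1 was at 40.0% (32.3 to 49.3%) of a low level, 1.71 RPKM, so that its value on log2(RPKM + 1) was -0.69. Kcnn3, at 4.25 and 2.08 RPKM, was at 48.9% (43.3 to 55.1%), or -0.77 on log2(RPKM + 1), and the low Kcnk12 was at 48.7% (35.6 to 66.1%). In the other direction, Cacna1c stood at 11.9 and 16.1 RPKM, or 135% (130 to 140%). Among the calcium pores Cacna1b made up 45.4% of the summed RPKM in shGFP and 30.5% in shnSR100, and Cacna1c 28.5% and 48.4%. Scn8a and Scn9a were at 103% and 104% of shGFP.

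Classes were compared over the members with at least 1 RPKM in either hairpin file. All of these were lower in shnSR100 for the calcium auxiliary (6), ion-activated potassium (5), two-pore (4) and HCN (3) genes. The same held for the sodium beta (2), BK auxiliary (2) and inward rectifier (2) genes, against 44.0% of all such genes lower. The filter used the compared values. The two-pore gene Kcnk12 and the inward rectifier gene Kcnj9 reached 1 RPKM in shGFP alone, so their lower values follow from the choice. Some differences were small, with Cacng4 at 98.1% (92.3 to 104%). The two-pore gene Kcnk5, under 1 RPKM in both files, was at 122% (99.2 to 150%). Of the Kv auxiliary genes, 3 of 4 such members were above shGFP, against 6619 of 11877 among all such genes. Kcnip3, a calcium-binding Kv4 partner, was at 114% (104 to 125%), and Kcnab1 was at 105% (99.1 to 111%). Of these 3 only Kcnip3 had an interval wholly above 100%. Kcnip2, under 1 RPKM in both files, was at 68.7% (49.6 to 94.8%). The sodium pores had 3 of 5 above shGFP.

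Of 62 genes whose products work with these channels (anchors of the axon initial segment, modulators, kinases and ubiquitin ligases among them), 41 were tested. After U2af65 knockdown edgeR called 4 of the 41 lower and 0 higher, read against the 3.42% and 1.82% of all genes above. DESeq2 called 7 lower and 1 higher (6.28% and 3.02% of all genes). limma on log2(RPKM + 1) called 8 lower and 0 higher (5.61% and 5.83%). edgeR with shGFP as a further control called 0. At an unadjusted p under 0.05 that fit gave 8 lower and 2 higher, against 730 and 432 of all 11237 genes. Ank3, the ankyrin that holds sodium channels at the axon initial segment, was at 162 and 147 CPM in the controls and 75.4 CPM in the knockdown and fell by 1.03 (SE 0.22, adjusted p 0.0331 by edgeR). Cdk5, a neuronal kinase, fell by 1.38 (adjusted p 0.0340 by edgeR), Adam23, a Kv1 partner, by 1.06 and Ppp3ca, a calcineurin subunit, by 0.97. After Ptbp1 knockdown edgeR, DESeq2 and limma on log2(RPKM + 1) called 0 of the 41. At an unadjusted p under 0.05 edgeR gave 1 lower and 0 higher, against 308 and 173 of all 11237 genes. edgeR with library totals called 1 of the 41 lower (0.641% of all genes), and with no filter 1 of 60 (0.516% of all genes). Both calls were of Rimbp2, a presynaptic scaffold that binds calcium channels. Its controls a and b lay far apart, at 146 and 56.7 CPM, against 44.1 CPM in the Ptbp1 knockdown. Between the hairpin files 1 of 46 was lower by 2-fold or more, Rem2, a small GTPase that restrains calcium channels, at 1.71 and 0.35 RPKM, and 0 were higher.

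The levels of some channel genes also differed between the hairpin and siRNA files. This grouping was looked at after the values were seen, and the experiments differ in delivery, selection and read length, which cannot be told apart. For 19 of the 52 members (36.5%) both hairpin files lay above all 4 siRNA files, against 30.3% of all genes, and for 5 (9.6%) both lay below, against 14.3%, so these shares are near those of all genes. Kcnmb4, a neuronal BK channel beta subunit, stood between 2.53 and 5.11 RPKM in the siRNA files and at 12.98 and 10.03 RPKM in shGFP and shnSR100. Kcnn1, a small-conductance channel gene, stood between 0.16 and 0.61 RPKM against 2.54 and 1.87 RPKM. Kcnn1 is 1 of 6 members that met the 1 RPKM rule in the hairpin files only. All 6 are among the 19, and for these the difference follows from the choice. Among the 5 genes below, Kcnn2 stood between 3.55 and 4.52 RPKM in the siRNA files and at 1.82 and 1.57 RPKM in the hairpin files.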

How the data were processed

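For every Ensembl gene the authors deposited a count of reads and an RPKM value, without column names. When checked on 10617 genes, the deposited RPKM matched the count over the product of one gene length and the library total, within 1% in 100% of them. Per the submitters' processing notes, the processing involved Bowtie, bedtools 2.17.0, mm9 and hg19, without their steps. The counting rule, strand use and annotation are not given in the sources used here, so overlapping, antisense and closely similar genes are uncertain. Symbols were matched to 20759 of 22667 genes, and 1114 genes had no RPKM. No coordinates are given, because the RefSeq table (GRCm38.p6) is of another build.

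The 4 siRNA libraries were fitted together with edgeR 4.0.16 (R 4.3.3): TMM scaling, genes averaging 1 RPKM or more, the quasi-likelihood test and Benjamini-Hochberg adjustment (threshold 0.05). Only 1 residual degree of freedom remains, that of the control pair, beside 8.65 prior degrees. The SE is approximate, the log2 difference divided by the square root of F. The test was first run on simulated data with log2 changes of 2 and 3, of which it recovered 98% and 99%. Smaller changes, such as those of the called members, were not simulated. Hairpin files were compared on log2(RPKM + 1), which understates the change of low genes. DESeq2 1.42.0 and limma 3.58.1 were alternatives.

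The members and the gene lists were chosen with earlier results of these data known. Genes were named by a rule: Scn3b and Cacng3, every member called, per class the 2 with the highest mean RPKM and the largest siRNA difference, those at 2-fold between hairpin files, and the 3 on each side of the 1 RPKM rule. Other genes named beside these were chosen after their values were seen. The 293T and crosslinking samples were not analysed here, and a few genes counted above are not reported by name or drawn here.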

Additional observations from a re-analysis of the deposited data

How the results depend on the processing

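No paired analysis was possible because a block for the letters a and b would leave the siRNA fit no residual degree of freedom, and the hairpin runs were combined into 1 file per group. After U2af65 knockdown, the count of channel genes called lower was 5 of 40 with TMM, with RLE size factors, with library totals and with DESeq2. These settings called 3.42%, 4.33%, 5.14% and 6.28% of all genes lower, in that order. It was 3 with limma on log2(RPKM + 1) or log2(RPKM + 0.1), 1 with a mean of at least 5 RPKM required and 0 with shGFP as a further control. The count called higher was 0 under these last 4 settings, against 5.83%, 5.49%, 0.829% and 0% of all genes. With no filter, 7 of 52 members were lower and 2 higher, against 5.45% and 3.9% of all genes. Hcn4 was then added to those higher, and Cacnb1 and Kcnk3 to those lower. The members' median was -0.14 with limma on log2(RPKM + 1), a setting that moved the median of all genes by 0.1. It ranged from -0.39 to -0.20 when either control was left out. After Ptbp1 knockdown, the count called lower was 1 of 52 (Kcnn3) with no filter, against 0.516% of all genes. The members' median ranged from -0.26 to -0.032 when either control was left out. In each of these cases the cause was not tested, except that leaving out a control or requiring 5 RPKM uses fewer samples or genes. limma on log2(RPKM + 0.1) moved the median of all genes by 0.11 in the U2af65 comparison, so its differences are read relative to that. Between the hairpin files, 4 or 5 members were lower by 2-fold or more and 0 higher with each pseudocount, filter and scaling tried, and the median lay between -0.42 and -0.33. No called gene changed sign under any setting tried, but of the single-gene differences followed, 6 of 29 after U2af65 knockdown and 12 of 29 after Ptbp1 knockdown, none of them called, changed sign in at least one. Single-library knockdowns and 1 residual degree of freedom limit every test here.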

Other observations

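The genes whose level moved most like the 2 marker genes over the 6 N2A files were listed by Pearson correlation of log2(RPKM + 1), as a description. The points share libraries and cells, and such high values are found when many genes are searched. Closest to Scn3b was Ptprn2, a secretory granule protein (r 0.98, n = 6 files), at 8.88 and 9.92 RPKM in controls a and b, 6.29 after U2af65 knockdown, 8.63 after Ptbp1 knockdown, 11.3 in shGFP and 6.59 in shnSR100. Atg7, Prrc2b, Siah3 and Celf6 followed, and among the channel genes Cacnb1 was closest (0.96). Closest to Cacng3 was Atg9a, an autophagy protein (r 0.99), at 18.7 and 16.9 RPKM in controls a and b, 17.8 and 15.8 after U2af65 and Ptbp1 knockdown, 15.8 in shGFP and 11.6 in shnSR100. Unc13a, which primes synaptic vesicles, followed at 66.4 and 51.7 RPKM in the controls, 59.7, 41.1, 51.8 and 24.0 RPKM in the other files in the same order. Fcho1, Carmil3 and Mplkip came next, and among the channel genes Cacna1g was closest (0.97).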
